A study of Rattus norvegicus with 17 samples.

Results

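The genes described here make, package, take back and break down the monoamines, the transmitters dopamine, noradrenaline and serotonin. They are Slc18a2, Th, Ddc, Dbh, Slc6a2, Slc6a4, Tph1, Maoa and Maob. Their probe sets were taken as those with a single gene symbol that is 1 of these 9 names, a step that used no signal. The genes themselves were chosen with earlier results of these data known. The names gave 11 probe sets of 8 genes, out of 31099 probe sets and 14218 singly named genes on the array, and Tph1 was not analysed here. Of the 11 probe sets, 6 (of Slc18a2, Th, Ddc, Maoa and Maob) passed a lower limit on brightness, the 40th percentile of the mean log2 signal of all probe sets, and were among the 18625 that were tested. The other 5, of Slc18a2, Ddc, Dbh, Slc6a2 and Slc6a4, were dimmer and are given from a fit without that limit. Nearest to the limit were Th inside it, with an average percentile of 46.2, and Dbh outside it, with 38.4.

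The samples were rat spinal cord neurons that had been labelled by retrograde tracing and collected by laser capture from 10 µm sections, with 1000 neurons for each of 17 arrays. Regenerating and non-regenerating neurons, both axotomised, came from the same 7 rats (the 5 MM animals MM11, MM13, MM14, MM16 and MM17, and the MOON animals MOON265 and MOON266), with 1 array of each kind per rat. Traced neurons without axotomy came from 3 other rats (MM15, MM18 and MM19), and the label of MM15 marks it as a replicate of high yield. Strain, age, the site of axotomy and the time after it are not given in the sources used here, and every sample is a pool of neurons chosen by tracer, not by transmitter. The RNA of all groups went through repeated rounds of amplification before it was hybridised.

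Th, tyrosine hydroxylase, begins the synthesis of dopamine and noradrenaline, and Tph1, a tryptophan hydroxylase, begins that of serotonin. Ddc, aromatic amino acid decarboxylase, takes the next step of both routes, and Dbh turns dopamine into noradrenaline inside the vesicle. Slc18a2 (VMAT2) loads monoamines into synaptic vesicles, Slc6a2 and Slc6a4 take noradrenaline and serotonin back up across the cell membrane, and Maoa and Maob oxidise them at the outer membrane of mitochondria. In the spinal cord most monoamine is released by axons whose cell bodies lie in the brainstem, while monoamine oxidases are also made by local neurons and glia.

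The stretches before the start sites of Slc18a2, Th, Maoa and Maob are shown because these genes include the member with the largest difference between groups, the first enzyme of the pathway and both breakdown enzymes. Each is the 250 bases before the start that RefSeq lists in the rat build GRCr8, written 5′ to 3′ on the gene's strand. Capitals mark TGACGTCA, the cAMP response element, and GGGCGG or its reverse complement CCGCCC, the GC box.

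Slc18a2, chr1:268399771-268400020, plus strand: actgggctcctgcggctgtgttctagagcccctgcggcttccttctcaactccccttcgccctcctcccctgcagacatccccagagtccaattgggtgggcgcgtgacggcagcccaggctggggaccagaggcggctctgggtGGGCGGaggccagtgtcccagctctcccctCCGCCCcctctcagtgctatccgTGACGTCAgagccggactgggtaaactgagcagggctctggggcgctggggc

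Th, chr1:207508219-207508468, minus strand: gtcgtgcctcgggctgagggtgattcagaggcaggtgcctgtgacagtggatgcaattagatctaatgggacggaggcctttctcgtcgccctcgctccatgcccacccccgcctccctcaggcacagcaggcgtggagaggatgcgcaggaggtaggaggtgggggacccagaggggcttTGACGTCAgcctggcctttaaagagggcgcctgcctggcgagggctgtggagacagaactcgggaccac

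Maoa, chrX:8681373-8681622, minus strand: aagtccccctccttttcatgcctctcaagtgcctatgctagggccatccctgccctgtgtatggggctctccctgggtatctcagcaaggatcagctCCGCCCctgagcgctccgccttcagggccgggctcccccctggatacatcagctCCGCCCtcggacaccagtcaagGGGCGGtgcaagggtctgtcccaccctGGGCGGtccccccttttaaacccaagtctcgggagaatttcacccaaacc

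Maob, chrX:8490155-8490404, plus strand: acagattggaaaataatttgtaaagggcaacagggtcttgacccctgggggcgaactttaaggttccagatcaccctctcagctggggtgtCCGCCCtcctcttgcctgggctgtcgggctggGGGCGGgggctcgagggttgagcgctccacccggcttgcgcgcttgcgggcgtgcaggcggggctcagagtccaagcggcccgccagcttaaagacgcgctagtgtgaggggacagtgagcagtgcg

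Of the 9 genes, 7 had a listed start, with 9 windows in all. The letters TGACGTCA, which read the same on both strands, begin 52 bases before the start of Slc18a2 and 69 before that of Th, and stand in no window of the other 5 genes. They are in 1.59% of the 33469 windows of this length in the table. GGGCGG on either strand occurs 4 times before Maoa, 2 times each before Maob, Slc18a2 and Tph1, and in 30.5% of all windows. The letters TGANTCA, which read the same on both strands and allow any middle base, were found before Th, Ddc and Tph1 and in 6.34% of all windows. The AP-1 element has C or G at that place, which only the match before Tph1 has. The motif matches did not overlap each other and are matches of letters only.

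No member passed the test in any comparison. Tests were made with limma on log2(signal + 16), with p-values adjusted by Benjamini-Hochberg over all 18625 tested probe sets and a threshold of 0.05. Of the 6 tested members, 0 passed between regenerating and non-regenerating neurons, where 0.0161% of all tested probe sets did. Between non-regenerating and not axotomised neurons 0 passed, against 0.0430% of all, and between regenerating and not axotomised neurons 0, against 0.215%. Without the limit on brightness 0 of the 11 passed in each comparison, against 0.00%, 0.0193% and 0.155%. At an unadjusted p under 0.05 in limma the 6 gave 1, 0 and 2 members in that order, where 7.08%, 10.3% and 23.6% of all probe sets lay under it. The 2 comparisons with not axotomised neurons use the same 3 control arrays.

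**Figure D1:**
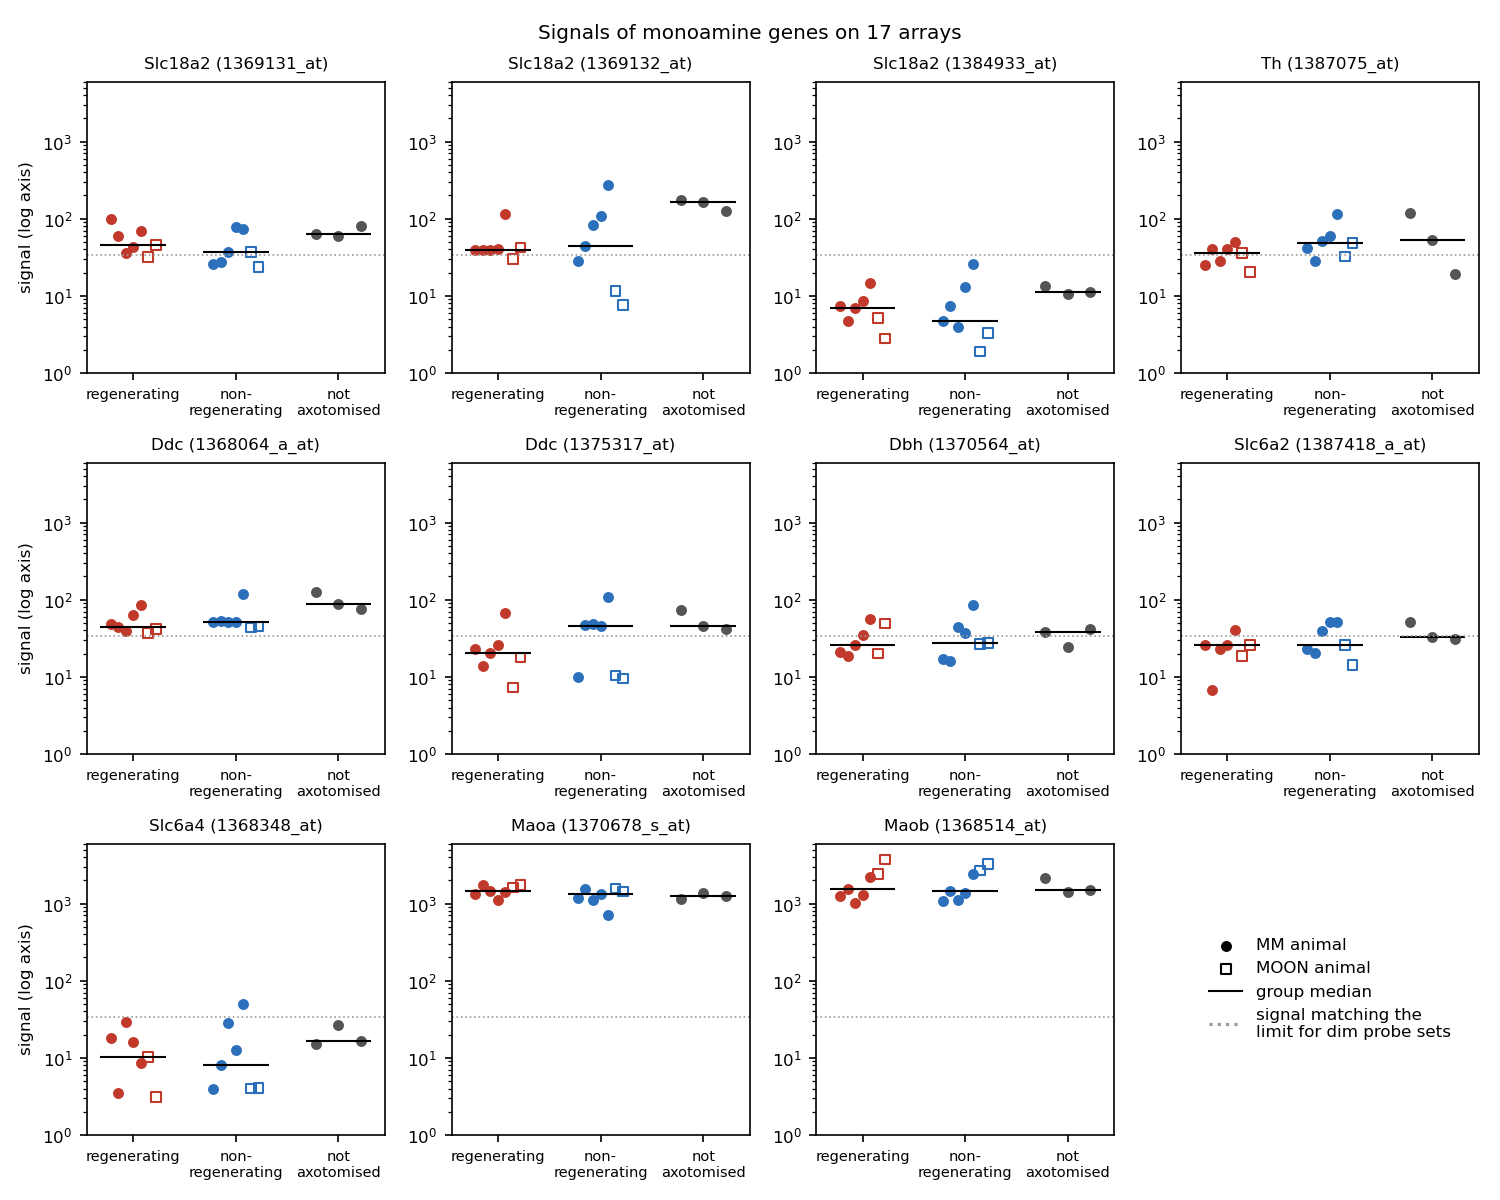
Signals of the 11 probe sets on the 17 arrays, on a log axis, with 1 point per array, circles for MM and squares for MOON animals, the group median as a line and the limit on brightness (a signal of 34) dotted. The Maoa and Maob points all lie above 700, and those of Slc18a2 1369132_at are higher in the 3 not axotomised animals than in any regenerating sample.

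The arrays differed as wholes in ways that touch these values. They had been scaled to nearly the same mean, but the median signal was 32.8 to 60.6 in the regenerating samples, 33.9 to 76.9 in the non-regenerating ones and 63.7 to 76 without axotomy, so that the first and the last did not overlap. It was 32.8 to 39 on the 4 MOON arrays and 45.2 to 76.9 on the MM arrays, and all not axotomised animals were MM animals. Apart from the others stood not axotomised MM15 and non-regenerating MM17. Their 100 brightest probe sets made up 11.9% and 12.4% of the total, and those of other arrays 3.85% to 7.31%. These 2 arrays gave the highest signal of 8 of the 11 member probe sets. All 10 measured markers of neurons in general passed the brightness limit, as did all 10 of astrocytes and all 7 of oligodendrocytes, and 9 of 12 of microglia and macrophages. Transcripts of other cell types were thus measured beside those of neurons. Markers of neurons in general and of oligodendrocytes had 0 past the threshold in each comparison. The same was so for the 11 tested markers of endothelium and pericytes, the 5 of blood cells and platelets and the 5 of Schwann cells, although between regenerating and not axotomised neurons 1 of endothelium and pericytes passed under either other scaling, and of Schwann cells 1 under quantile normalization and 2 with arrays centred on their medians.

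The vesicle transporter Slc18a2 was lower in regenerating than in not axotomised neurons at its brightest probe set, 1369132_at, but did not pass. Its signal in regenerating neurons was 39, 38.8, 38.9, 40.5 and 113.5 in MM11, MM13, MM14, MM16 and MM17, and 30.1 and 42.2 in MOON265 and MOON266. In the not axotomised neurons of MM15, MM18 and MM19 it was 176, 163.1 and 124.4. The lowest not axotomised sample thus lay above the highest regenerating one, and 6 of the 7 regenerating samples lay close together at 30.1 to 42.2. The group means were 49 ± 28.7 (SD, n = 7) and 154.5 ± 26.9 (SD, n = 3). The log2 fold change was -1.46 (SE 0.31, 95% interval -2.12 to -0.81), or 2.76-fold lower on the offset scale. It had p = 0.00028 and adjusted p = 0.068 by limma, and a two-sided exact permutation p of 0.00833, the smallest that 7 against 3 samples can give. Over all tested probe sets, 9.36% had every regenerating sample below every not axotomised one. In pools of neurons, fewer cells with a transcript and less of it per cell cannot be told apart.

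Beside this difference stand those of the arrays as wholes. Over all tested probe sets the median log2 fold change of the same comparison was -0.12, and 59.2% were lower. With each array centred on its median the difference was -1.07 (adjusted p = 0.051 by limma), and the median of all was then 0.26. As a rank among all probe sets of its own array, 1369132_at stood at a percentile of 40.5 to 64.8 in regenerating and of 65.2 to 72.6 in not axotomised samples, so that the groups stayed apart. Among MM animals alone the difference was -1.37 (adjusted p = 0.074 by limma). It passed in 5 of 21 other settings, at -0.98 to -1.64, among them without regenerating MM17 (-1.64, adjusted p = 0.013 by limma). Without not axotomised MM15 it was -1.37 (adjusted p = 0.39 by limma).

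Non-regenerating neurons were the group with the widest spread at Slc18a2 1369132_at. Their signals were 28.5, 43.7, 83, 109 and 274.1 in the 5 MM animals in the order above and 11.5 and 7.7 in the MOON animals. They covered the whole range of both other groups, with a mean of 79.6 ± 93.5 (SD, n = 7). Against not axotomised neurons the log2 fold change was -1.33 (SE 0.62, 95% interval -2.66 to 0, adjusted p = 0.47 by limma). It was -0.77 among MM animals alone, and with array weights both this probe set (-1.26, adjusted p = 0.026) and 1369131_at (adjusted p = 0.03) passed in limma.

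Within animals, Slc18a2 had no common direction. At 1369132_at the regenerating sample was higher in 3 of 7 animals, with log2 differences of 0.31, -0.12, -0.85, -1.15 and -1.16 in the MM animals and 0.75 and 1.3 in the MOON animals. The mean was -0.13 (SE 0.27, 95% interval -0.71 to 0.44, adjusted p = 0.92 by limma, n = 7 pairs). It was -0.6 among the MM and 1.02 among the MOON animals, a difference between them that was not tested.

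The other probe sets of Slc18a2 did not show the same size of difference. At 1369131_at the regenerating samples ranged from 32.2 over a median of 45.5 to 98.7, the non-regenerating from 23.8 over 36.8 to 77.7, and the not axotomised gave 63.7, 60.3 and 80.9. The 3 groups overlapped, and the regenerating against not axotomised log2 fold change was -0.3 (SE 0.29, 95% interval -0.92 to 0.32, adjusted p = 0.57 by limma). That value turned to 0.08 under quantile normalization and to 0.09 with arrays centred on their medians. The remaining probe set, 1384933_at, lay below the offset of 16 on 16 of 17 arrays, at 1.9 to 26.2. Against not axotomised neurons the probe sets of this gene therefore disagreed on the size, and for 1369131_at under some scalings on the direction. Within animals 1369131_at gave 0.28 (SE 0.23, 95% interval -0.2 to 0.77, adjusted p = 0.77 by limma), with the regenerating sample higher in 3 of 7 animals. Its sign there was opposite to that of 1369132_at (-0.13) as deposited, and both intervals included 0.

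**Figure D2:**
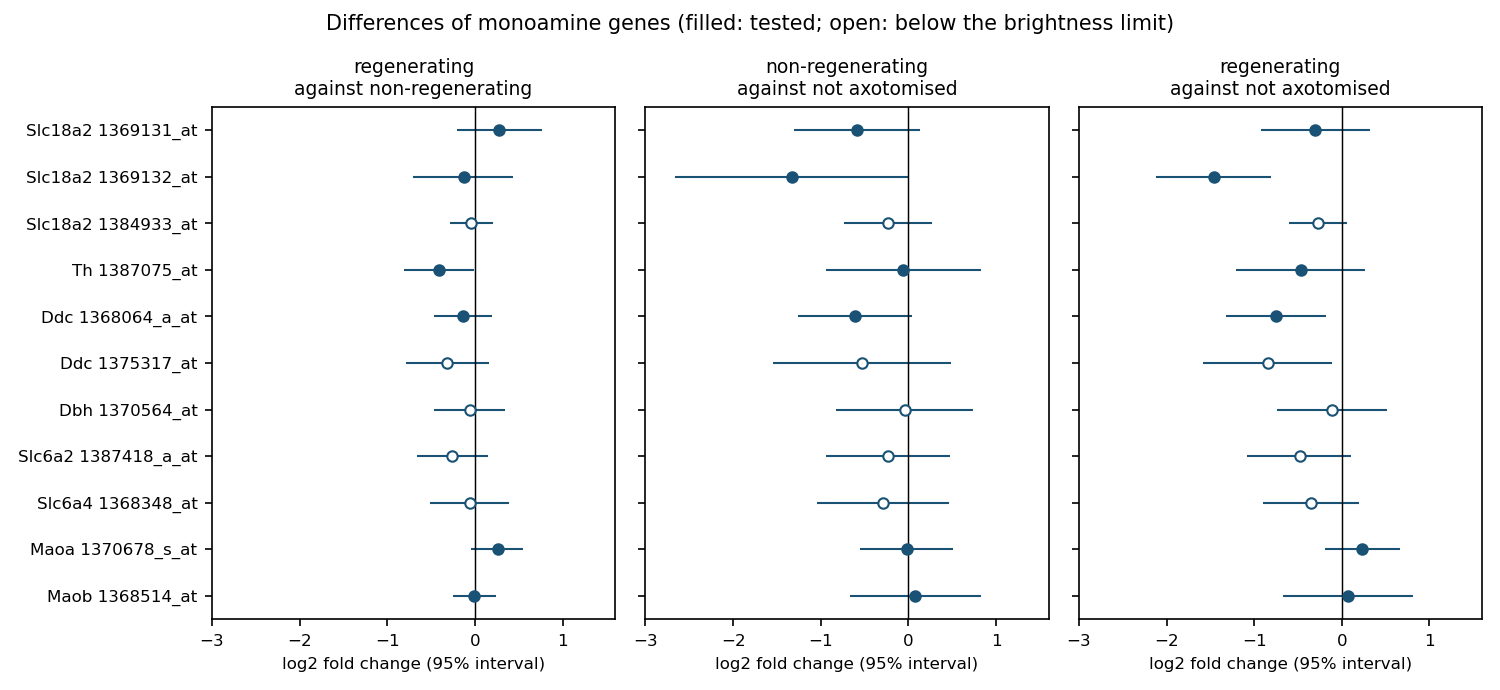
Log2 fold changes of the 11 probe sets in the 3 comparisons, with 95% intervals from limma, filled where the probe set was tested and open where it was below the brightness limit. Slc18a2 1369132_at has the largest difference, -1.46, in regenerating against not axotomised neurons, and 0 of the 33 values passed the threshold.

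Th, the first enzyme of catecholamine synthesis, was measured by 1 probe set, 1387075_at, with low signals in every group. In regenerating neurons it read 25.3, 39.9, 28.4, 40.9 and 50.2 in MM11, MM13, MM14, MM16 and MM17, and 36.1 and 20.6 in MOON265 and MOON266. In the non-regenerating neurons of the same animals it read 41.9, 28.7, 51.9, 59.6, 116.6, 32.3 and 48.5. The regenerating sample was lower in 5 of the 7 animals, all but MM13 and MOON265, and the ranges of the groups overlapped. On the log2 scale the difference was -0.41 (SE 0.19, 95% interval -0.81 to -0.01, n = 7 pairs). It had p = 0.044 and adjusted p = 0.7 by limma, and sign flips over the pairs, an exact test, gave a two-sided p of 0.0781, where 7 pairs allow 0.0156 at the smallest. Over all tested probe sets, 2.81% were lower at an unadjusted p under 0.05 in this comparison. Its range over 18 other settings was -0.54 to -0.24, and it passed in 0 of them.

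The 3 not axotomised animals differed widely for Th, with 118.1 in MM15, 53.1 in MM18 and 19 in MM19. These values spanned the whole range of the other 14 arrays, and MM15 and the non-regenerating MM17 array, the arrays that stood apart, gave the highest signals. Against not axotomised neurons the log2 fold change was -0.06 (SE 0.41) for non-regenerating and -0.47 (SE 0.35) for regenerating neurons, with adjusted p = 0.96 and 0.45 by limma. Without MM15 they were 0.43 and 0.01. The first was also above 0 without non-regenerating MM13 (0.04) or MOON265 (0.02), under quantile normalization (0.25) and with arrays centred (0.3), so neither sign held in every setting.

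Ddc, the decarboxylase shared by the dopamine and serotonin routes, had its highest group mean in not axotomised neurons at 1368064_a_at, its brightest probe set. The signals of MM15, MM18 and MM19 were 125.4, 87.4 and 75.5, and the regenerating samples ran from 37 over a median of 44.4 to 84.8 in MM17. Only MM17 among the regenerating samples lay within the not axotomised range. The means were 51.1 ± 17.1 (SD, n = 7) and 96.1 ± 26.1 (SD, n = 3), a log2 fold change of -0.75 (SE 0.27, 95% interval -1.32 to -0.18). This gave p = 0.014 and adjusted p = 0.11 by limma, and a two-sided exact permutation p of 0.0167. Over all tested probe sets, 17.6% were lower at an unadjusted p under 0.05 in this comparison.

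The size of the Ddc difference depended on the scaling and on single arrays. It was -0.36 with arrays centred on their medians and -0.4 under quantile normalization, and it passed in 1 of 21 other settings, without regenerating MM17 (-0.85, adjusted p = 0.049 by limma). The dimmer probe set 1375317_at read 42.1 to 73.1 in not axotomised and 7.3 over a median of 20.3 to 67.2 in regenerating neurons. It gave -0.84 (SE 0.34, adjusted p = 0.16 by limma without the brightness limit), the same direction as the brighter one, and -1.03 without regenerating MM17 (adjusted p = 0.043).

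The non-regenerating signals of Ddc at 1368064_a_at lay at 43.6 to 52.6 in 6 animals and at 117.3 in MM17. Their log2 fold change against not axotomised neurons was -0.61 (SE 0.3, adjusted p = 0.47 by limma), with a two-sided exact permutation p of 0.025. Between regenerating and non-regenerating neurons it was -0.14 (SE 0.16, 95% interval -0.47 to 0.19, adjusted p = 0.84 by limma), and regenerating samples were higher in 1 of 7 animals, MM16. The order of the group means for Ddc was thus not axotomised, non-regenerating and regenerating, and neighbouring groups overlapped.

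Dbh, which makes noradrenaline, was below the brightness limit. Its probe set 1370564_at read 18.8 over a median of 26 to 55.8 in regenerating, 16.1 over 27.7 to 84.6 in non-regenerating, and 38.1, 24.4 and 41.3 in not axotomised neurons. The groups overlapped throughout. The log2 fold changes were -0.06 between regenerating and non-regenerating, -0.04 between non-regenerating and not axotomised and -0.11 between regenerating and not axotomised neurons, with SE of 0.19, 0.37 and 0.29.

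The membrane transporters also lay below the limit. Slc6a2, the noradrenaline transporter, read 6.8 over a median of 25.8 to 40 in regenerating, 14.3 over 25.6 to 51.7 in non-regenerating, and 51.4, 33.2 and 31.2 in not axotomised neurons. Its log2 fold change was -0.48 (SE 0.28, 95% interval -1.08 to 0.11) in regenerating against not axotomised neurons and -0.26 (SE 0.19) against non-regenerating ones. Slc6a4, the serotonin transporter, read 3.1 over a median of 10.3 to 28.9, 3.9 over 8.2 to 49.3, and 15.2, 26.5 and 16.6 in the same order of groups. It was below the offset of 16 on 10 of 17 arrays, so its fold changes of -0.06 to -0.35 depend on that offset. For neither transporter were the groups apart.

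Maoa, which prefers serotonin and noradrenaline, was bright on every array. Its probe set 1370678_s_at read 1340, 1748, 1451, 1120 and 1418 in the regenerating neurons of MM11, MM13, MM14, MM16 and MM17, and 1610 and 1733 in those of MOON265 and MOON266. The non-regenerating neurons of the same animals read 1172, 1551, 1105, 1317, 718, 1567 and 1430, and the not axotomised ones of MM15, MM18 and MM19 1131, 1367 and 1265. The regenerating sample was the higher one in 6 of 7 animals, all but MM16, although the ranges of the groups overlapped. Within animals the log2 fold change was 0.26 (SE 0.14, 95% interval -0.04 to 0.55, n = 7 pairs, adjusted p = 0.7 by limma), with a two-sided exact sign-flip p of 0.109. In MM17, whose non-regenerating array stood apart, the difference was 0.97, and in the others it was -0.23 to 0.39. Against not axotomised neurons it was 0.23 (SE 0.2) for regenerating and -0.02 (SE 0.25) for non-regenerating neurons.

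Markers of motor neurons were read beside Maoa within animals. Of 8 tested, 7 had higher signals in the regenerating samples (median log2 fold change 1.19), and 1 passed, against 0.0161% of all tested probe sets. It was Calca, which encodes CGRP (2.22, SE 0.32, adjusted p = 0.031 by limma). Under quantile normalization and with arrays centred on their medians 0 of the 8 passed, and the list medians were 1.14 and 1.22. The summed signal of the 8 was 1351 to 6141 in regenerating and 777.8 to 1768 in non-regenerating samples, and none of them was at 0 on every array. Their part in the values of Maoa was not tested.

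Maob, which prefers phenylethylamine and is well known from astrocytes and serotonergic neurons, was also bright on every array and nearly equal between the neurons of 1 animal. At 1368514_at the regenerating neurons of the 5 MM animals in the order above read 1242, 1537, 1024, 1289 and 2209, and those of MOON265 and MOON266 read 2408 and 3729. Their non-regenerating counterparts read 1085, 1451, 1125, 1360, 2449, 2680 and 3286. Animals differed widely while the samples of 1 animal lay close together, with MOON266 highest and MM14 among the lowest in both. Its log2 fold change was -0.01 (SE 0.12, 95% interval -0.25 to 0.24, adjusted p = 0.99 by limma), so a fold outside 0.84 to 1.18 lay beyond that interval. This was the narrowest interval of the 6 tested members in this comparison.

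The not axotomised samples of MM15, MM18 and MM19 read 2175, 1397 and 1515 for Maob, inside the range of both axotomised groups. The log2 fold change was 0.07 (SE 0.35) for regenerating and 0.08 (SE 0.35) for non-regenerating against not axotomised neurons, and -0.24 and -0.22 among MM animals alone. The means of the axotomised MOON samples were 3069 and 2983 and those of the MM samples 1460 and 1494, in regenerating and non-regenerating neurons.

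Astrocyte markers were read beside Maob. Of 10 tested, 7 were higher and 3 lower in regenerating than in not axotomised neurons, with a median of 0.26. Gfap, the astrocyte filament protein, was the 1 that passed (1.33, SE 0.22, adjusted p = 0.026 by limma), against 0.215% of all tested probe sets. The 3 lower ones were Slc7a10 (-0.82, SE 0.31, adjusted p = 0.13 by limma), Slc1a2 (-0.13) and Gjb6 (-0.1). The summed signal of the 10 was 12840 to 14320 in not axotomised, 13680 to 22920 in regenerating and 13430 to 23370 in non-regenerating samples. It was 16030 to 23370 on the axotomised MOON arrays and 13430 to 22740 on the axotomised MM arrays, which overlapped. None of the 10 was at 0 on every array, and their part in the values of Maob was not tested.

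**Figure D3:**
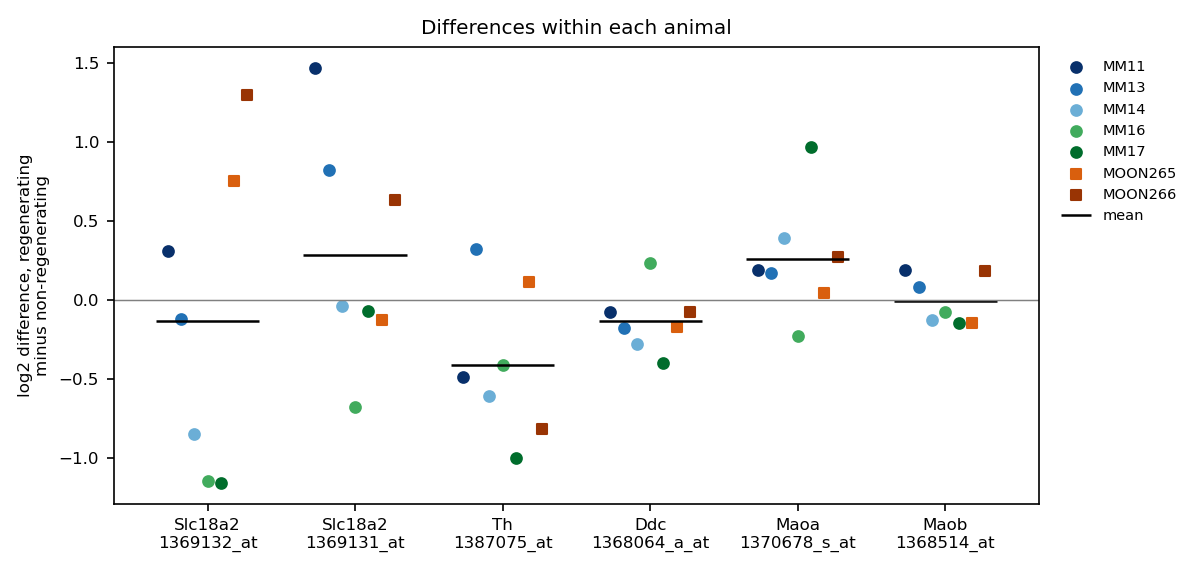
Log2 difference of regenerating minus non-regenerating neurons within each of the 7 animals for the 6 tested probe sets, with 1 point per animal, squares for MOON animals and the mean as a line. Maob differs by -0.15 to 0.19, while Slc18a2 1369132_at ranges from -1.16 to 1.3.

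Over all 11 probe sets, the share that was lower after axotomy depended on the scaling. In regenerating against not axotomised neurons 9 of the 11 probe sets were lower, and their median log2 fold change was -0.35. Of the 6 tested members 4 were lower, where 59.2% of all tested probe sets were, and all 5 dim ones were lower. Under quantile normalization 8 of the 11 were lower (median -0.1), and with arrays centred on their medians 5 were (0.04). In non-regenerating against not axotomised neurons 10 of the 11 were lower as deposited (median -0.23). Of the 6 tested members 5 were lower, where 61.2% of all tested probe sets were. There 8 of the 11 were lower under quantile normalization (-0.1) and 4 when centred (0.13). Between regenerating and non-regenerating neurons 9 of 11 were lower (median -0.06), 8 when centred and 6 under quantile normalization. Of the 6 tested members 4 were lower there as deposited, where 50.2% of all tested probe sets were. The 11 probe sets are of 8 genes, as Slc18a2 and Ddc have more than 1 each.

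Other genes of monoamine signalling were read from lists by role. Of the 54 with a probe set, 29 were bright enough to be tested. Among receptor genes with a probe set, 4 of 14 for serotonin, 4 of 8 adrenergic and 4 of 6 for dopamine and trace amines were tested. The brightness limit was on the mean of all 17 arrays, so a faint gene could pass it through the group where it was high. None of the 29 passed the threshold in any of the 3 comparisons. In regenerating against not axotomised neurons 22 were lower (the list median was -0.31), and 7 of these and 1 of the higher ones had an unadjusted p under 0.05 in limma. Of all tested probe sets, 23.6% lay under that limit and 17.6% did so and were lower. Under quantile normalization 15 of the 29 were lower (median 0), and with arrays centred on their medians 11 were (0.08). In the order of the members' roles, the lists ran from cofactor synthesis to receptors.

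Genes for the cofactor tetrahydrobiopterin, which Th and the tryptophan hydroxylases need, had medians above 0 in all 3 comparisons and under all 3 scalings tried. Pts, an enzyme of its synthesis, had a mean signal of 82.9 ± 20.2 (SD, n = 7) in regenerating and 71.2 ± 11.9 in non-regenerating neurons, and of 50 ± 4.74 (n = 3) without axotomy. It differed by 0.56 (SE 0.24, adjusted p = 0.18 by limma) between the first and the last. Gch1, the entry enzyme, differed by 0.45 (SE 0.41), and Qdpr, which recycles the cofactor, by -0.06 (SE 0.24). Of the 4 tested, 3 were higher, and 4 when arrays were centred.

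Among the other transporters, Slc6a3, which takes up dopamine, had a mean of 29.7 ± 12.2 (SD, n = 7) in regenerating and 64.9 ± 19.8 (n = 3) in not axotomised neurons. The log2 fold change was -0.84 (SE 0.29, adjusted p = 0.1 by limma). Slc22a3, an extraneuronal organic cation transporter, differed by -0.38 (SE 0.35).

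Of the other breakdown enzymes, 6 of 7 were higher in regenerating than in non-regenerating neurons, as was Maoa. Akr1b1, an aldehyde reductase, differed by 0.56 (SE 0.22), Aldh2, a mitochondrial aldehyde dehydrogenase, by 0.4 (SE 0.19), and Akr1a1, another aldehyde reductase, by 0.38 (SE 0.18). Their adjusted p was 0.68, 0.7 and 0.7 by limma. The list's median was 0.16, and 0.19 under either other scaling.

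Fev, Adrb3 and Htr5a had lower signals in every regenerating sample than in any not axotomised one, as had Slc18a2 1369132_at. The same was so for Drd2, for Slc6a3 (highest regenerating 42.6, lowest not axotomised 45.8) and narrowly for Nr4a2 (61.1 and 61.3). Fev, a transcription factor of serotonin neurons, read 12.1 over a median of 31.9 to 69.7 in regenerating neurons and 90.6, 102.3 and 262.2 as lowest, median and highest in not axotomised ones. It differed by -1.58 (SE 0.37, adjusted p = 0.068 by limma). Adrb3, a beta adrenergic receptor, read 23.9 over 33.5 to 89.4 against 96.6, 105.2 and 291.6, and differed by -1.47 (SE 0.37, adjusted p = 0.068). Htr5a, a serotonin receptor, read 9.9 over 29.5 to 61.9 against 76.2, 76.6 and 77.8, and differed by -1.06 (SE 0.3, adjusted p = 0.071). In the other direction, Pts had 55.7 as its lowest regenerating and 54.3 as its highest not axotomised signal. For these genes, and no others of the 29 tested, the groups did not overlap, as was so for 11.7% of all tested probe sets. The array medians did not overlap either, with 60.6 the highest in regenerating and 63.7 the lowest in not axotomised samples.

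Drd2, a dopamine receptor, read 67.1 over a median of 125.6 to 178.4 in regenerating and 204.3, 242.3 and 421 in not axotomised neurons. It differed by -1.11 (SE 0.31, adjusted p = 0.071 by limma), and its groups did not overlap either. Taar1, the trace amine receptor, differed by -0.92 (SE 0.35, adjusted p = 0.13), and Nr4a2, a transcription factor of dopamine neurons, by -0.67 (SE 0.28, adjusted p = 0.17). None of these passed the threshold. The mean signal of Taar1 was 29.8 in regenerating and 32.1 in non-regenerating neurons, both under the brightness limit (a signal of 34), and 75.5 without axotomy. Taar1 thus passed that limit through the group where it was high, so its lower values after axotomy are no separate support. Slc6a3 (29.7) and Htr5a (30.7) also averaged under the limit in regenerating neurons.

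Htr2c, the serotonin receptor known for keeping motor neurons excitable, was the receptor gene with the smallest p within animals. It had a mean of 1971 ± 606 (SD, n = 7) in regenerating, 2667 ± 910 in non-regenerating and 2723 ± 906 (n = 3) in not axotomised neurons. The log2 fold change was -0.42 between the samples of an animal (SE 0.14, adjusted p = 0.68 by limma). Adra1b, an alpha-1 adrenergic receptor, also differed by -0.42 (SE 0.17, adjusted p = 0.68), from 394.9 to 286.5.

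**Figure D4:**
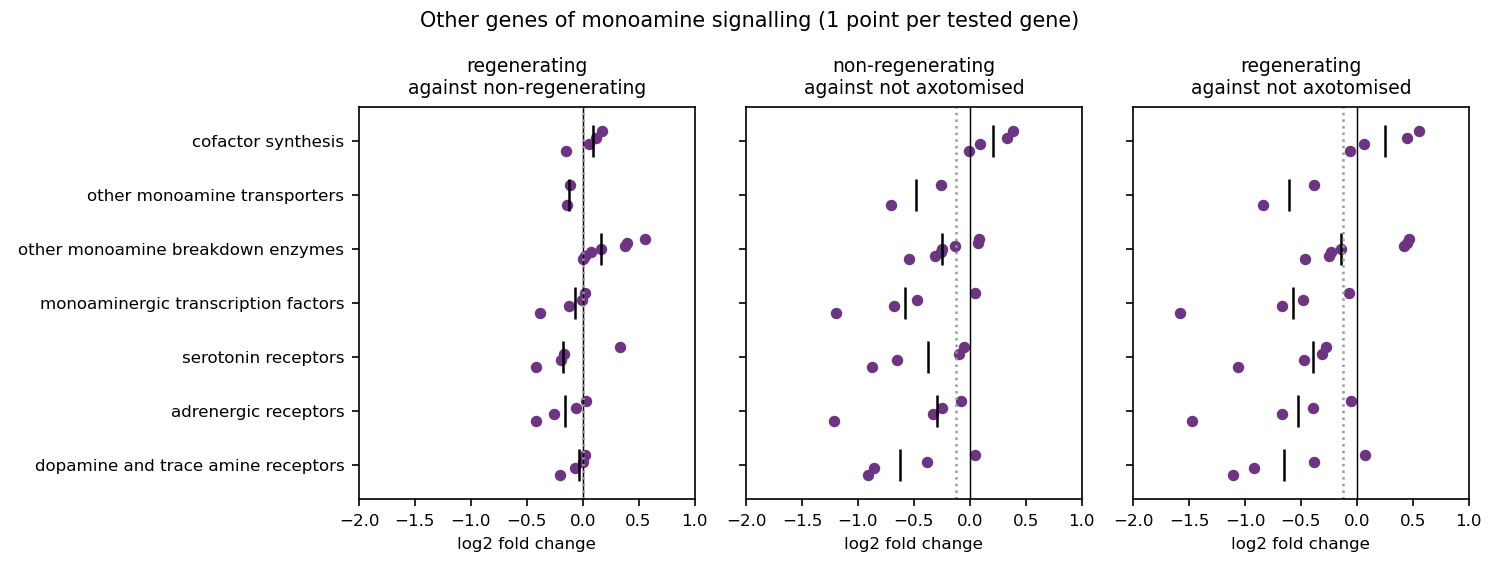
Log2 fold changes of the 29 tested genes of monoamine signalling in the 3 comparisons, with 1 point per gene, the median of each list as a bar and the median of all tested probe sets dotted. Cofactor genes lie mostly to the right of 0, with medians of 0.09, 0.21 and 0.25, and receptor and transcription factor genes mostly to the left in the comparisons with not axotomised neurons, with 0 of 29 past the threshold.

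Mast cells store serotonin or histamine through Slc18a2, and their markers were read for that reason. Of 9 with a probe set 4 were bright enough, and all 4 were lower in regenerating than in not axotomised neurons, with a median of -0.64 and 0 past the threshold. The summed signal of the 9 was 151.8 to 352.7 in regenerating, 130.2 to 599.2 in non-regenerating and 378.1 to 649.1 in not axotomised samples. As for Slc18a2 1369132_at, the first and the last did not overlap, as was so for the array medians. Of all tested probe sets taken singly, 11.7% did not overlap, with either group the higher, and no such share was computed for sums. With arrays centred the median was -0.25. None of the 9 was at 0 on every array, 5 were below the brightness limit, and their part in the values of Slc18a2 was not tested.

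Microglia and macrophage markers differed in the opposite direction to Slc18a2 and Ddc. Of 9 tested, all 9 were higher in regenerating than in not axotomised neurons (median 1.46), and 3 passed, against 0.215% of all tested probe sets. These were Laptm5, a lysosomal membrane protein of haematopoietic cells (1.58, SE 0.25, adjusted p = 0.021 by limma), the complement subunit gene C1qa (1.52, SE 0.25, adjusted p = 0.029) and the lysozyme gene Lyz2 (1.46, SE 0.26, adjusted p = 0.033). In non-regenerating against not axotomised neurons all 9 were higher as well (median 1.38) and 0 passed, or 1 under quantile normalization. The summed signal of the 12 with a probe set was 4859 to 9864 in regenerating, 5215 to 8943 in non-regenerating and 2495 to 2794 in not axotomised samples, so that both axotomised groups lay above the last. Of all tested probe sets taken singly, 11.7% did not overlap between regenerating and not axotomised neurons, with either group the higher, and no such share was computed for sums. None of the 12 was at 0 on every array, 3 were below the brightness limit, and their part in the values of Slc18a2 and Ddc was not tested.

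The genes most like each tested member over the 17 arrays were found by Pearson correlation of log2 signals after the means of the MM and the MOON arrays had been taken out. Slc18a2 was closest to Rab1b (r = 0.97), Tpm3 (0.95) and Inhbe (0.95), and Ddc to Sptssa (0.96), Nsdhl (0.95) and Atp6v1b2 (0.95). Th was closest to Ubn2 (0.92), Atg2b (0.88) and Ccbe1 (0.85). Maoa was closest to Nck2 (0.84), Cyth3 (0.83) and Vstm4 (0.83), and Maob to Tead1 (0.94), Pla2g4a (0.92) and Htra3 (0.92). These values describe the 17 arrays, which share animals and differ in spread, and for Slc18a2, Th and Ddc the arrays of MM17 and MM15 hold the highest signals.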

How the data were processed

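Total RNA of the laser captured neurons was amplified in repeated rounds, labelled with biotin and hybridised to Affymetrix arrays, per the labels' protocols. The deposited values are linear signal intensities of probe sets that the authors computed in GCOS, per the submitters' processing notes; version, settings and genome build are not given in the sources used here. The number of arrays limits the precision. Means trimmed by 2% at each end were nearly equal on all arrays, so the deposited signals were used with no further normalization. To every signal 16 was added before log2 (the 25th percentile of the table), which shrinks the changes of faint genes. The 57 control probe sets were left out, and 12417 dim ones, under the 40th percentile of mean log2 signals, were not tested. Names came from the annotation table of the array platform, with 13224 tested probe sets of 1 symbol, 300 of several and 5101 of none.

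Regenerating and non-regenerating samples were compared with the animal, named in the labels, as a block, and each with the not axotomised samples between animals, in limma 3.58.1 (R 4.3.3; lmFit, eBayes with trend). As a check of the pairing, the deviations of an animal's samples from their group means correlated over probe sets, at r = 0.34 to 0.71. P-values were adjusted by Benjamini-Hochberg over 18625 probe sets, and 33 values of members were read from these fits. Two-sided exact sign flips or permutations of samples gave single values. In the comparison within animals, p-values measure how the differences within pairs vary from animal to animal. In the comparisons with not axotomised samples they measure the spread between animals. The fits were tested on simulated data. Named were all members at every singly named probe set, up to 3 genes per pathway list and comparison with the smallest p, the 3 genes most like each member, and markers of cell types beside a result. Lists used the brightest probe set per gene, and 1 list of monoamine signalling genes is not reported here. The members and lists were chosen with earlier results of these data known. Other settings tried were the normalization, the offset, the filter, no trend, array weights, no block, name prefixes, 1 fit over all samples, and leaving out each animal or array. Python 3.11.15 and matplotlib 3.10.9 drew the figures.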

Additional observations from a re-analysis of the deposited data

Results flagged for a closer look

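In 7 of the 22 groups of 7 samples formed by the 11 member probe sets, the highest linear signal lay farther from the next than Dixon's 95% limit allows. For separate groups of normally distributed values chance gives about 1 in 20 when either end counts, and fewer for the highest alone. These groups share arrays and the signals were not on the log2 scale, so that rate does not hold for them. All 7 were samples of MM17. For Slc18a2 at 1369132_at, regenerating MM17 read 113.5 against 42.2 in the next sample, and non-regenerating MM17 read 274.1 against 109. Th in non-regenerating MM17 read 116.6 against 59.6. Ddc at 1368064_a_at read 117.3 in non-regenerating MM17 against 52.6, and at 1375317_at it read 67.2 in regenerating MM17 against 25.8 and 107 in non-regenerating MM17 against 49.1. Dbh in non-regenerating MM17 read 84.6 against 44.1. The array of non-regenerating MM17 was also 1 of the 2 that stood apart over all probe sets.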

How the results depend on the processing

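Of 33 log2 fold changes of member probe sets, 13 kept their sign in every alternative and 20 changed it in at least 1. In 5 of the 33 a member passed limma in at least 1 alternative, and 73 of 651 alternative values had the other sign. The 651 include settings that cannot change a fold change, namely the filter, no trend, no replicate block and 1 fit over all samples. A term for the name prefix gives the value of MM animals alone. The count of 73 of 651 therefore understates how often the sign changed where it could. Faint signals limit all members but Maoa and Maob, and 7 animals against 3 limit the comparisons with not axotomised neurons. For values named here the cause was not tested.

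The count of members past the threshold, 0 as reported, was 2 with array weights in non-regenerating against not axotomised neurons. In regenerating against not axotomised neurons it was 1 under quantile normalization, with 4 times the offset, with array weights or with a term for the name prefix, and 0 to 2 when 1 sample was left out (2 without regenerating MM17).

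Over all probe sets, 3 passed between regenerating and non-regenerating neurons. With no replicate block, so without the pairing by animal, 0 passed, as under quantile normalization, with no filter and without the arrays that stood apart. With an offset of 4 and among MM animals alone 1 passed, and leaving out 1 animal gave 0 to 3. In non-regenerating against not axotomised neurons the 8 became 17 under quantile normalization, 3 with an offset of 64 or MM animals alone, 2440 with array weights, 23 in 1 fit over all samples, and 2 to 37 with 1 sample left out. In regenerating against not axotomised neurons the 40 (29 higher, 11 lower) became 209 under quantile normalization, 350 (300 higher) with arrays centred, 859 with an offset of 64, 20 with a filter at the 70th percentile, 3131 with array weights, 70 among MM animals alone, 1 without the arrays that stood apart, 202 with the name prefix as a term, and 1 to 1504 with 1 sample left out (1 without MM15, 1504 without regenerating MM17).

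Between regenerating and non-regenerating neurons, Maob (-0.01) was 0.01 under quantile normalization and 0.02 without the arrays that stood apart, with arrays centred or with array weights, and -0.04 to 0.02 with 1 animal left out. Slc18a2 1369132_at (-0.13) was 0.04 without the arrays that stood apart, 0.03 with array weights, and -0.37 to 0.04 with 1 animal left out. With no replicate block 0 passed, and every member kept its value, as complete pairs make certain in advance.

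Between non-regenerating and not axotomised neurons, Maoa (-0.02) was 0.34 with arrays centred, 0.03 without the arrays that stood apart, and -0.09 to 0.1 with 1 sample left out. Maob (0.08) was -0.03 under quantile normalization, -0.02 with array weights, -0.22 with the name prefix as a term and in MM animals alone, and -0.07 to 0.27 with 1 sample left out. Th (-0.06) was 0.25 under quantile normalization, 0.3 with arrays centred, 0.31 with array weights, 0.04 with the name prefix as a term and in MM animals alone, 0.26 without the arrays that stood apart, and -0.54 to 0.43 with 1 sample left out.

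Between regenerating and not axotomised neurons, Maob (0.07) was -0.03 under quantile normalization, -0.01 with array weights, -0.24 with the name prefix as a term and in MM animals alone, and -0.11 to 0.26 with 1 sample left out. Slc18a2 1369131_at (-0.3) was 0.08 under quantile normalization and 0.09 with arrays centred. Th (-0.47) was 0.01 without the arrays that stood apart, 0.12 with array weights, and -0.96 to 0.01 with 1 sample left out.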
